A study of Mus musculus with 39 samples.

Results

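The mouse prolactin family, the pregnancy-specific glycoproteins (Psg) and the Ceacam adhesion molecules were placed on maps of nucleosome wrapping and replication timing in embryonic stem cells. Members were the protein-coding genes on chromosomes 1 to 19 whose symbol is Prl, or Prl followed by digits, or starts with Psg or Ceacam; Prlh and Prlr do not belong to the family and were not counted. The rule gave 54 genes of 20807 protein-coding genes, made up of 26 Prl, 13 Psg and 15 Ceacam genes. They lie on chromosomes 7 and 13 only.

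The cells were wild-type R1 mouse embryonic stem cells, grown in medium with LIF, a cytokine that keeps them undifferentiated. Chromatin was crosslinked with formaldehyde, digested with micrococcal nuclease and precipitated with an antibody to histone H3 (4 libraries from 2 experiments), and replicating DNA labelled with BrdU was taken from 4 fractions of S phase (8 libraries from 2 experiments). All these libraries come from 1 genotype and 1 growth condition, so the comparisons are between genomic regions and not between treatments. No expression data were used, so the identity of the cells was not checked against marker genes, and nothing is said about whether a gene is transcribed.

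Prolactin is the pituitary hormone that drives lactation, and rodents carry an expanded family of related hormones, most of which are made by trophoblast and decidua during pregnancy. The Psg proteins are secreted by trophoblast into the maternal circulation and belong, with the Ceacam cell adhesion proteins, to the carcinoembryonic antigen branch of the immunoglobulin superfamily. Embryonic stem cells are derived from the inner cell mass and do not normally form trophoblast.

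The wrapping list divides the genome into domains by a score made from the balance of longer and shorter nuclease fragments. Domains with a positive score are called tight (TiNRD) and domains with a negative score loose (LoNRD); the score measures fragment length, to which features other than wrapping may contribute. The timing list gives each domain the log2 ratio of the first S phase fractions over the last, positive where replication was early and negative where it was late. The 2 lists used here hold 1 value per domain and no replicate values, so their values are given without an error. Domain starts fall on steps of 100 kb for wrapping and 50 kb for timing, and the wrapping index was smoothed over neighbouring bins before domains were called, so a wrapping border is known less precisely than its step. Each gene was placed by its midpoint, and all positions are on mm10 (GRCm38).

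Of the 54 members, 30 lay in a LoNRD, against 20.3% of all protein-coding genes, and 36 lay in a late domain, against 21.4%. The same 30 genes were both in a LoNRD and late, a combination found for 13.5% of protein-coding genes. The other 24 members divided into 18 in a TiNRD that replicated early (69.4% of protein-coding genes) and 6 in a TiNRD that replicated late (7.49%). No member lay in an early LoNRD (5.33% of protein-coding genes) or lacked a call (4.25%).

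These counts are not counts of independent observations, because the genes share few domains. The 54 members occupied 8 NRDs (3 LoNRDs and 5 TiNRDs) and 7 timing domains (3 late and 4 early). A single LoNRD held 23 of the 30. Without the cluster in that domain, 7 of the remaining 31 members (22.6%) lay in a LoNRD, close to the share of all protein-coding genes. In a late domain lay 13 of 31 (41.9%), against 21.4% of all protein-coding genes. Of these 13, 10 shared 1 late domain on chromosome 7 and 3 shared 1 on chromosome 13. The families also differed from each other: 25 of 26 Prl genes, 5 of 15 Ceacam genes and 0 of 13 Psg genes were in a LoNRD.

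Genes whose midpoints lay within 1 Mb of the next member were joined, which gave 5 clusters and 1 gene on its own. The hormone genes formed both clusters of chromosome 13. The main prolactin cluster held 23 genes from Prl to Prl5a1 over 1094 kb (chr13:27057570-28151611), with no other protein-coding gene between them.

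All 23 lay in 1 LoNRD (chr13:25300001-28600000, score -0.95) and in 1 late domain (chr13:26250001-28600000, log2 ratio -0.87). Ranked by distance from 0, that score was number 56 of 525 LoNRDs on the autosomes, and that ratio was number 219 of 849 late domains. The domain thus ranked higher among LoNRDs than the timing domain did among late domains. The medians over all protein-coding genes with a call were a score of 0.76 and a log2 ratio of 0.98.

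The cluster starts with Prl, the gene of pituitary prolactin (chr13:27057570-27065205), 1538.6 kb from the nearest LoNRD border as the list draws it. Next come Prl3d1, which encodes placental lactogen 1 of the trophoblast giant cells, and its close copies Prl3d2 and Prl3d3. Prl3b1, the gene of placental lactogen 2 of later pregnancy, lay 1354.2 kb from the LoNRD border, and Prl8a2, the decidual prolactin-related protein, 1250.1 kb. So the pituitary hormone, the placental lactogens and the decidual member were all over 1 Mb from the borders of the same LoNRD. Distances to the nearest timing border were 811.4 kb for Prl, 847.2 kb for Prl3d1, 995.8 kb for Prl3b1 and 1099.9 kb for Prl8a2. The last gene, Prl5a1, was the one nearest to a border, at 453.0 kb in both lists.

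The 23 genes lie in blocks of shared orientation, with 13 on the plus and 10 on the minus strand. They are short, with a median length of 7.51 kb against 17.6 kb for all protein-coding genes. The nearest other protein-coding genes on both sides, Hdgfl1 at 287.4 kb and the predicted gene Gm11361 at 105.9 kb, lay in the same LoNRD and the same late domain. They were its only other protein-coding genes, so members made up 23 of 25.

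On the downstream side both lists placed a border at the same position, 28600000. Beyond it the score was 0.36 and the log2 ratio 0.50. The 1 Mb downstream of the cluster was 44.8% LoNRD and 44.8% late. Sox4, which encodes an SRY-related transcription factor of many embryonic tissues, lay in that flank in the early TiNRD (chr13:28948919-28953713); it was chosen for mention after its values were seen. The 1 Mb upstream of Prl lay entirely in the LoNRD and was 80.8% late, and the remainder had no timing call.

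**Figure D1:**
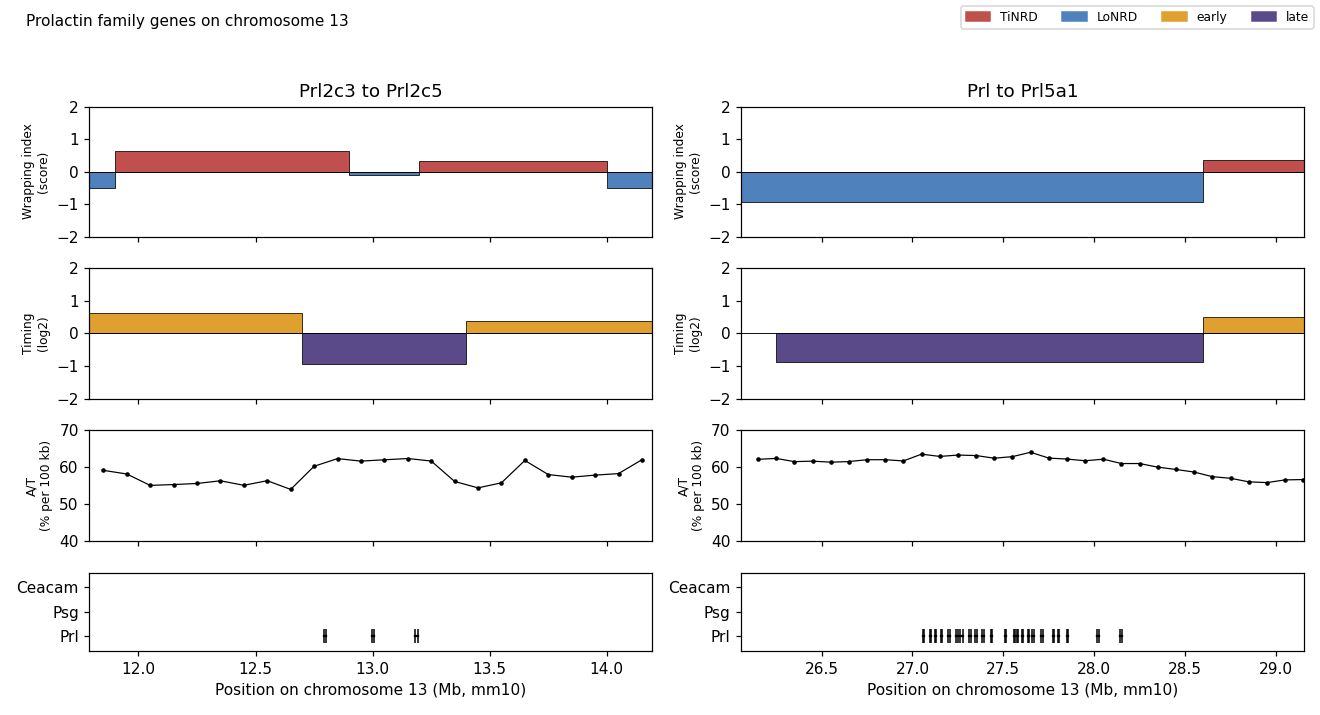
Domain values around the prolactin clusters on chromosome 13, with 1 Mb on each side: wrapping score (top), log2 timing ratio (below it), A/T content in bins of 100 kb and the member genes (bottom). The 23 genes on the right sit in 1 loose, late domain that ends at 28600000 in both lists. The 3 genes on the left sit in 1 late domain and are divided by a wrapping border.

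The proliferin cluster, the other prolactin cluster, held 3 genes over 401.1 kb (chr13:12790816-13191923). Proliferins are angiogenic, growth-promoting hormones of the trophoblast giant cells. All 3 lay in a late domain (chr13:12700001-13400000, log2 ratio -0.94) with early domains on both sides (0.63 upstream and 0.39 downstream). A wrapping border at 12900000 divided them.

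Prl2c3 (chr13:12790816-12800079) lay in a TiNRD with a score of 0.62, and was the only Prl gene in a TiNRD. Prl2c2 (chr13:12996125-13005383), proliferin, and Prl2c5 (chr13:13182715-13191923) lay in a LoNRD of 300 kb with a score of -0.12. That score ranked 490 of 525 LoNRDs, close to 0. Prl2c5 was the member nearest to a wrapping border of all 54, at 12.7 kb, which is less than a bin. All 3 genes lie within about 1 bin of a wrapping border, so their wrapping calls are not well resolved.

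Prl2c3 and Prl2c2 are nearly the same gene, with 99.6% identity over the coding sequence, yet they carry different wrapping calls. Of the 50-base words in these genes, 22.4% for Prl2c3 and 20.0% for Prl2c2 occur once on chromosome 13, against a median of 94.7% over its 100 kb bins. Most of these words thus match more than 1 position of the chromosome, and what part this had in the scores was not tested. The proliferin Prl2c1 in the main cluster had 90.2 to 92.4% coding identity with the 3 genes and lay in the LoNRD of score -0.95.

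The flanking genes were Ero1lb upstream, which encodes an oxidase of the endoplasmic reticulum, and Gpr137b downstream, which encodes a lysosomal membrane protein. Ero1lb lay in the same TiNRD as Prl2c3 but in the early domain before it. Gpr137b (chr13:13357620-13394014) lay in the same late domain as the cluster but in the next TiNRD, of score 0.32. It lies less than 1 window from the timing border at 13400000, so its late call is not resolved. As the lists draw them, the timing and wrapping borders thus did not coincide on either side of the cluster. The wrapping index was smoothed over neighbouring bins, so these offsets are not well resolved.

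The mixed cluster of chromosome 7, from Ceacam15 to Psg17, held 21 genes over 2150 kb (chr7:16671331-18821607), with 18 other protein-coding genes between them. It was cut by 2 wrapping borders and 2 timing borders, all at different positions. Reading from the centromere side, it passed from tight and early to tight and late, to loose and late, to tight and late again, and back to tight and early. The LoNRD lay inside the late domain.

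In the first stretch, Ceacam15, Ceacam9, Psg16, Ceacam3 and Psg29 lay in a TiNRD (score 0.89) that was early (log2 ratio 1.50). Of the 18 genes that are not members, 15 lay in this stretch, between Ceacam9 and Psg16. The timing border came at 17350000 and the wrapping border at 17700000. The 350.0 kb between them held no member, and only 40.2% of its 50-base words were found once on chromosome 7.

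Ceacam5, Ceacam14, Ceacam11, Ceacam13 and Ceacam12 filled the LoNRD (chr7:17700001-18200000, score -0.50), which was late (log2 ratio -0.62). They were the only Ceacam genes in a LoNRD. Ceacam11, Ceacam12, Ceacam13 and Ceacam14 are rodent genes known from trophoblast. Ceacam5 was nearest to the wrapping border, at 37.2 kb, which is less than a bin, so its LoNRD call is not well resolved. With these 5 genes the domain held 7 protein-coding genes, so it was mostly Ceacam as the domain on chromosome 13 was mostly Prl.

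The other 11 Psg genes, from Psg18 to Psg17, followed in a single TiNRD (chr7:18200001-20000000, score 1.18), which ranked 20 of 561 TiNRDs. A timing border at 18600000 ran through the array. Psg18, Psg28, Psg26, Psg25 and Psg27 lay on the late side (log2 ratio -0.62), and Psg23, Psg21, Psg20, Psg22, Psg19 and Psg17 on the early side (log2 ratio 1.76). The early domain ranked 5 of 768. Neighbouring copies of the same family thus fell in domains with timing values far apart while sharing 1 wrapping domain. These are values of whole domains, not of the Psg genes alone. Psg and Ceacam members made up 14 of the 70 protein-coding genes of the TiNRD. They were 9 of 68 in the early domain and 10 of 13 in the late domain.

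The border fell between Psg27 (chr7:18556514-18567305) and Psg23 (chr7:18606343-18616501). Psg27 was 38.1 kb and Psg23 11.4 kb from it by their midpoints, both less than the 50 kb window, so the side on which these 2 genes fall is not resolved. The next genes outward, Psg25 at 74.0 kb and Psg21 at 51.7 kb, were more than a window away. The nearest neighbours outside the cluster, Arhgap35 and Mill2, a protein related to MHC class I, were both in early TiNRDs.

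**Figure D2:**
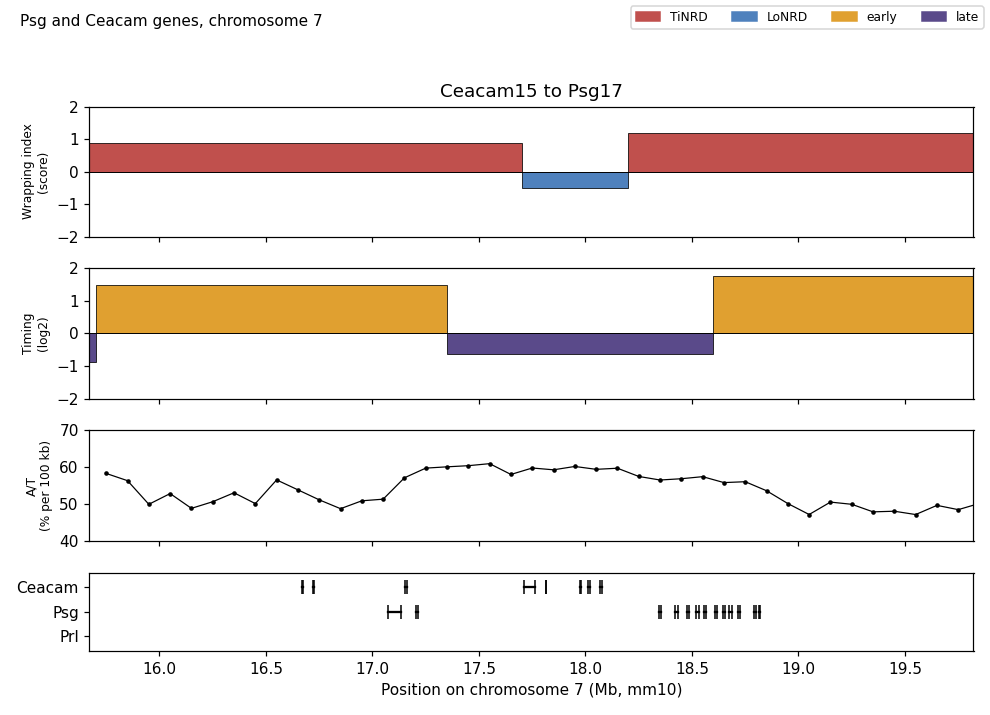
Domain values around the Ceacam15 to Psg17 cluster on chromosome 7, with 1 Mb on each side: wrapping score (top), log2 timing ratio (below it), A/T content in bins of 100 kb and member genes by family (bottom). The LoNRD of score -0.50 lies inside the late domain of log2 ratio -0.62, and the timing border at 18600000 runs through the Psg array.

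Within the array of 11 Psg genes, coding identity had a median of 88.7% between late genes (10 pairs, 83.8 to 96.4%) and 85.5% between early genes (15 pairs, 78.7 to 97.5%). Between a late and an early gene the median was 86.1% (30 pairs, 78.6 to 89.7%). The medians were close to each other. The comparison includes Psg27 and Psg23, whose sides are not resolved. Pairs share genes, so they are not independent. For 5 of 13 Psg genes the closest relative had another combination of calls. One of them was Psg27, whose closest relative was Psg21 at 89.7%. For Prl genes this held for 2 of 26, which were Prl2c3 and Prl2c2. For Ceacam genes it held for 3 of 15, which were Ceacam3, Ceacam5 and Ceacam10. Gap columns count as differences in these identities, so genes of unequal coding length score low. Ceacam15 (702 bases) and Ceacam5 (2841 bases), for example, reached 18.8%. The closest relative of a Ceacam gene thus depends partly on coding length.

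To show the sequence of the genes next to the timing border, the 150 bases before the RefSeq start (GRCm38.p6) are given for Psg27, called late (chr7:18567306-18567455, minus strand) and Psg23, called early (chr7:18616502-18616651, minus strand). Both genes lie within 1 window of the border, so their sides are not resolved. Capitals mark bases that differ or have no partner in their alignment, with overhanging ends left in lower case. They were identical at 118 of 141 aligned columns (83.7%).
Psg27: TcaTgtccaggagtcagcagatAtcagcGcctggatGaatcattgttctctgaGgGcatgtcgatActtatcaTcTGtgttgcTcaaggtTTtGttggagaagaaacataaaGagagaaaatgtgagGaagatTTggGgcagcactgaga
Psg23: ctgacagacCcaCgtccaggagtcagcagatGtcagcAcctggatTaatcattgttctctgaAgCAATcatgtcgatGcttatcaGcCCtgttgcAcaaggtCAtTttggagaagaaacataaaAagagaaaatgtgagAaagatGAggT

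The same was done for the proliferins with different wrapping calls, Prl2c3 in the TiNRD (chr13:12800080-12800229, minus strand) and Prl2c5 in the LoNRD (chr13:13182566-13182715, plus strand), since the promoter table has no entry matched to Prl2c2. These were identical at 144 of 150 aligned columns (96.0%).
Prl2c3: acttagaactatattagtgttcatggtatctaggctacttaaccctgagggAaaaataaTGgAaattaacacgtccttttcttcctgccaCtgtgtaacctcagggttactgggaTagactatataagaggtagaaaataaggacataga
Prl2c5: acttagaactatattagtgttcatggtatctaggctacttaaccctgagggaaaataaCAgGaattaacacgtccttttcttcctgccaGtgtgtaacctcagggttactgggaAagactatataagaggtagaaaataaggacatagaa

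The remaining Ceacam genes lay in tight, early chromatin. Ceacam16, a component of the tectorial membrane of the inner ear, Ceacam19 and Ceacam20 formed a cluster of 139.0 kb (chr7:19852097-19991104) towards the far end of the TiNRD and early domain that hold the Psg genes from Psg23 to Psg17. Ceacam20, which is found on intestinal microvilli, was 21.7 kb from the end of that TiNRD. The next gene, Nlrp9b, an inflammasome gene, started 0.4 kb further on and was placed in a LoNRD of score -0.33, but in the same early domain. Ceacam20 lies within 1 bin of this wrapping border, so the difference in wrapping call between these genes is not well resolved. The 1 Mb before Ceacam16 was entirely tight and early, while the 1 Mb after Ceacam20 was 40.0% LoNRD and 84.1% late.

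Ceacam1, an adhesion receptor of epithelia and immune cells and the receptor for mouse hepatitis virus, its relative Ceacam2 and Ceacam10 formed a cluster of 762.7 kb with 24 other protein-coding genes. Their TiNRD had the highest score of the 8 domains that hold members, 1.29, and ranked 11 of 561. Their timing domain had a log2 ratio of 1.60. Ceacam10 was nearest to Cd177, a neutrophil glycoprotein, and Ceacam2 to Erich4, both in the same domains as the cluster. Ceacam18, alone between Zfp819 and Siglece, lay in a TiNRD of score 1.12 that was early (log2 ratio 1.32).

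The 1 Mb flanks of the 6 groups were on average 24.3% LoNRD (SD 32.0, 12 flanks) and 21.6% late (SD 31.3) by length, against 45.5% and 50.5% of the length of chromosomes 1 to 19. The spread between flanks exceeded the mean, and with flanks of 2 Mb the late share was 40.9%. On chromosome 7, flanks of 2 Mb also take in members of a neighbouring cluster, which were not left out. The flanks of the Ceacam16 cluster overlap those of the Psg cluster, so the 12 are not independent.

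The clusters differed in base composition. The main prolactin cluster was 62.7% A/T and the proliferin cluster 62.2%, against medians of 61.4% over 100 kb bins in LoNRDs and 55.6% over bins in TiNRDs. The mixed cluster was 57.0% A/T, and within it the LoNRD stretch with the 5 Ceacam genes was 59.7%, the late TiNRD stretch with 5 Psg genes 57.1%, and the early stretches 53.7% and 55.9%. Over the 4 stretches of the mixed cluster that hold members, A/T content fell from the loose, late one to the tight, early ones. The late TiNRD stretch with no member was 59.9% A/T. The Prl2c3 stretch, at 62.5%, was in a TiNRD with an A/T content above the 95th percentile of TiNRD bins, 59.3%. The LoNRD stretch with Prl2c2 and Prl2c5 was slightly lower, at 62.0%, so this order did not hold in the proliferin cluster.

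Repetition differed as well. Single-copy 50-base words made up 86.3% of the main prolactin cluster, 75.3% of the mixed cluster and 51.9% of the proliferin cluster, against 90.7% of chromosome 13 and 86.0% of chromosome 7. Within single genes the share was lowest in Prl2c2, at 20.0%, and had a median of 97.1% over the 23 genes of the main cluster. Ceacam1 and Ceacam2, the products of a recent duplication with 90.3% coding identity, had 49.1% and 62.3%.

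**Figure D3:**
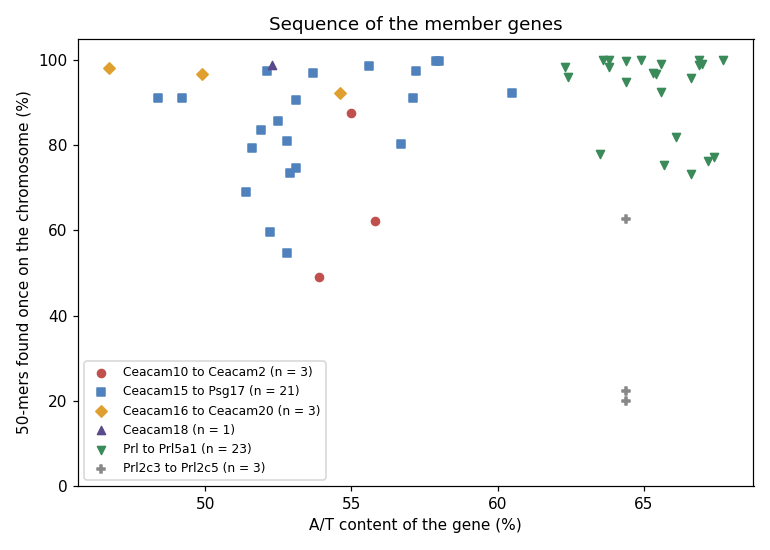
A/T content of each member gene (horizontal axis) against the percent of its 50-base words found once on its chromosome (vertical axis), 1 point per gene and 1 symbol per cluster. All Prl genes lie above 62% A/T, all Psg and Ceacam genes below 61%, and Prl2c2 and Prl2c3 have the lowest shares of single-copy words.

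RefSeq promoter windows of 300 bases were matched for 45 of 54 members. A window is not always at the annotated gene start. The largest offsets in position were 583 bases for Prl3b1, -193 for Psg20 and 147 for Ceacam2. The Prl3b1 window is counted below among those with TATAAA. The members held a median of 2 CG dinucleotides (0 to 5), against 15 in 15704 protein-coding genes and 2 in 2146 genes of late LoNRDs. The Psg and Ceacam families, of which 18 genes lie in early TiNRDs, also had medians of 2, so low CG content was not limited to the members in late LoNRDs.

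Both strands of the windows were searched for TATAAA, for TGANTCA, the core of AP-1 sites, and for AGATAA, a form of GATA sites. TGANTCA was present in 9 of 22 Prl windows (40.9%), 3 of 10 Psg windows and 1 of 13 Ceacam windows, against 7.0% of all windows and 12.3% of those in late LoNRDs. AGATAA was present in 9 of 22 Prl windows (40.9%), 1 of 10 Psg windows and 7 of 13 Ceacam windows (53.8%), against 9.5% of all windows and 18.6% of those in late LoNRDs. TATAAA was present in 5 of 22 Prl windows, 0 of 10 Psg windows and 4 of 13 Ceacam windows, against 12.9% of all windows and 30.1% of those in late LoNRDs. Copies such as Prl3d1, Prl3d2 and Prl3d3, which all hold TGANTCA, count as separate windows although they are closely related, and a match of letters is not evidence of binding.

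As examples of starts inside and outside the main prolactin domain, the 150 bases before the start are given for Prl (chr13:27057420-27057569, plus strand), for Prl3d1 (chr13:27094039-27094188, plus strand) and for Sox4 (chr13:28953700-28953849, minus strand). Capitals mark CG, TATAAA and TGANTCA. Prl and Prl3d1 held 1 CG each in this stretch and Sox4 held 10. These 3 windows were picked as examples and do not show a change at the border, since windows of genes in late LoNRDs held up to 59 CG over 300 bases.
Prl: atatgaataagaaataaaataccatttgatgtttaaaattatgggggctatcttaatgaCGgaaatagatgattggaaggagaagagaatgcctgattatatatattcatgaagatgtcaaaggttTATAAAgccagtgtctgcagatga
Prl3d1: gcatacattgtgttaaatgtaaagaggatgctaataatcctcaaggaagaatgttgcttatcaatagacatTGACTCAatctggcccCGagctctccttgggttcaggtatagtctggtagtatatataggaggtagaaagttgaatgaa
Sox4: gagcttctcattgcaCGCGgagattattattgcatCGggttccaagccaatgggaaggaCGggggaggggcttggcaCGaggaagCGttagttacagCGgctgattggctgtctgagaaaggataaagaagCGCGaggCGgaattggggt

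The hormone genes were set beside a chosen list of 13 genes of prolactin and growth hormone signalling and its control. Of these, 9 lay in early TiNRDs, against 69.4% of all protein-coding genes, among them Jak2, Stat5a and Stat5b, the kinase and transcription factors downstream of the receptor. Prlr, the prolactin receptor, was the only one in an early LoNRD (score -0.45, log2 ratio 0.51). Ghr, the growth hormone receptor, Prlhr, the receptor for prolactin-releasing peptide, and Pou1f1, the pituitary factor that activates Prl, lay in late LoNRDs. Gh, the growth hormone gene and a relative of Prl outside the cluster, lay in an early TiNRD (log2 ratio 1.50).

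Of a chosen list of 12 transcription factors of the trophoblast lineage, all, such as Cdx2, Eomes, Elf5 and Gcm1, lay in early TiNRDs, where 69.4% of all protein-coding genes lie. They were in 12 separate NRDs. A chosen list of 7 Siglec genes and relatives, immunoglobulin-like receptors that bind sialic acid, lay in early TiNRDs as well but shared 3 NRDs.

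The other placental gene clusters of chromosome 13, the cathepsins and the trophoblast-specific proteins Tpbpa and Tpbpb, were mostly called like the main prolactin cluster. All 10 lay in 1 LoNRD of score -0.54, against 20.3% of all protein-coding genes in a LoNRD, and 9 of 10 in 1 late domain of log2 ratio -0.85, against 21.4% in a late domain. Cts3 (chr13:61564630-61570127) was placed in the early domain beyond (log2 ratio 0.91). The last late gene, Ctsm (chr13:61535743-61541839), lies less than 1 timing window from it, with the border between them. The sides of these 2 genes are therefore not resolved. These 10 genes again share 1 wrapping domain and were not counted as separate observations.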

How the data were processed

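The deposited wrapping list holds 1 score per domain; the authors made it from H3 fragments as a z-score in 100 kb bins, smoothed, on mm10. The deposited timing list holds 1 log2 ratio per domain in 50 kb windows, quantile normalized by the authors. Per the submitters' processing notes, cutadapt 4.3, Bowtie2 2.5.1, Picard, SAMtools and bedtools 2.30.0 were used. Whether replicates were pooled for the timing list, and how bins give a domain its value, is not given in the sources used here. The lists carry no depth. Members and lists were chosen with earlier results of these data known. Genes of GENCODE M21 were placed by midpoint, checked with bedtools 2.31.1 (0 of 20807 genes differed). The domains on the 19 autosomes, which alone were used, ended within the GRCm38 chromosome lengths. Named genes were the first, last and border-nearest members of each cluster, members whose call differs from most of their cluster, its neighbours, and Prl, Prl3d1, Prl3b1, Prl2c2, Prl8a2, Ceacam1 and Ceacam2. Other members named, and Sox4, were added after their values were seen. Longest coding sequences and promoters were aligned with Biopython 1.88; word counts covered both strands and were tested on simulated data. No test was run. Alternatives for placement, domain length, cluster gap and flank size were computed.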

Additional observations from a re-analysis of the deposited data

How the results depend on the processing

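Of 26 alternative values for 7 results, 23 kept within 1.5 times the main count or within 1 SD of the main share. The count of members in a LoNRD was 30 by midpoint, by gene start, by whole gene and by 50% of gene length, and 28 with domains of at least 500 kb. The count in late domains was 36 in each of these settings. No member gene spans a border of either list, so placement by gene start, whole gene or 50% of length could not change the counts. All members have a call in both lists, so limiting the count to called genes could not change it either. These fixed outcomes are among the 23. The other 3 values, chosen after seeing the data, leave out the main prolactin cluster: 7 members in a LoNRD, 13 in late domains and 7 in both, of 31. This follows from the 23 genes of that cluster being removed. Joining members within 500 kb gave 8 groups and within 2 Mb gave 5, against 6. The LoNRD share of the flanks was 24.9% with 500 kb and 36.3% with 2 Mb, against 24.3%, and the late share 26.5% and 40.9% against 21.6%. The late share with 2 Mb was over 1.5 times the main value and lay within 1 SD only because the SD between flanks, 31.3, exceeded the mean. The flanks of 2 Mb around the Psg and Ceacam16 clusters also hold members of the other cluster. With no replicate values and no depth in the lists, the error of a score or ratio cannot be given from them. Genes of 1 domain share its value. The study's reporting summary names separate timing tracks for its 2 experiments and gives read numbers per library, which were not used here. No paired analysis was possible because the results come from no test.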
